A study of Saccharomyces cerevisiae with 10 samples.

Results

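MA-A3 is 1 of 5 lines of the budding yeast Saccharomyces cerevisiae, and its transcript levels are set here against those of the other 4, which are MA-A8, MA-A4, MA-A1 and MA-A0. The series title places the lines in a mutation accumulation experiment, in which populations pass through very small sizes again and again and selection has little hold on new mutations. The arrays used are all 10 of the study, because each pair of lines was hybridised once, and 4 of the 10 carry MA-A3: with MA-A4 and MA-A8 it was labelled with Cy3, and with MA-A0 and MA-A1 with Cy5. The labels give the line name and no genotype, ploidy, ancestor, medium or growth stage for any of the 5 lines, and they do not say whether the 4 hybridisations of MA-A3 came from separate cultures. Standard errors and p-values therefore measure the spread between hybridisations, which may be technical. A line is 1 lineage, so nothing here extends from MA-A3 to other lines.

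For each of 5415 genes, 427 on chromosome XIII and 4988 elsewhere, the value given for MA-A3 is the distance between it and the averaged other 4 lines. It comes from a linear model over the 10 arrays with a term for dye, and it is given with the standard error (SE) of the fit. The deposited values were taken as log2 of Cy5 over Cy3. Neither the base nor the direction is stated in the table, and if the ratios run the other way all signs below turn. Array values quoted below were centred on the median of the array and turned so that a positive value means more in MA-A3 than in the line named. Each array compares MA-A3 with a different line, so the 4 values of a gene differ by the partner as well as by error. Levels are relative within each RNA sample, so a change in amount per cell and a change in the share of cells making a transcript cannot be told apart. A gene is called when its p-value from limma's moderated test, adjusted by Benjamini and Hochberg's method over all 5415 genes, was at most 0.05.

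Several programmes that recur below are well known in yeast. The transcription factors Msn2 and Msn4 switch on a broad set of protective genes when growth slows or the cell is stressed, among them the enzymes that store glucose as glycogen and trehalose. The factor Pho4 drives phosphate capture and storage when phosphate is scarce, Aft1 does the same for iron, and Gcn4 drives amino acid synthesis. A gain of a whole chromosome usually raises the transcripts of most of its genes together.

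In MA-A3, 584 of 5415 genes were higher (10.8%) and 335 were lower (6.19%) than in the other lines on average, and 1548 had an unadjusted p under 0.05. Outside chromosome XIII the balance was different, with 233 of 4988 genes higher (4.67%) and 326 lower (6.54%). The counts of the gene lists below stand beside these shares. The lists were chosen with earlier results of these data known, so their counts are a description and not a test. The median size of the called differences outside that chromosome was 0.48 for higher and 0.42 for lower genes, and 24 and 21 of them passed 1 on the log2 scale. MA-A3 was the highest of the 5 lines for 225 of the 233 and the lowest for 314 of the 326. Of the called genes outside chromosome XIII with values on all of its arrays, 195 of 232 higher and 258 of 326 lower genes lay on the same side of 0 on 4 of 4 arrays. The mean on the 2 Cy5 arrays and the mean on the 2 Cy3 arrays shared the called direction for 227 higher and 308 lower genes. Because the same values called these genes, such counts of rank and sign are largely set by the calling and only describe them. The counts depended on single arrays. The 335 lower genes were 169, 159 and 159 without the array with MA-A4, MA-A0 or MA-A1, and 518 without that of MA-A0 against MA-A8. Outside chromosome XIII, without the array with MA-A0 the 2 counts were 122 and 152, without that with MA-A1 130 and 151, without that with MA-A4 the lower count was 162, and without that with MA-A8 the higher count was 139. Without the array of MA-A0 against MA-A8, which carries no MA-A3, the lower count there was 508.

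Set against each line separately, MA-A3 differed in 629 genes from MA-A0 (11.6%), 818 from MA-A1 (15.1%), 628 from MA-A4 (11.6%) and 988 from MA-A8 (18.2%), both directions together. These 4 comparisons share the MA-A3 samples and are not independent. Outside chromosome XIII the higher and lower genes numbered 134 and 208 against MA-A0, 226 and 263 against MA-A1, 146 and 184 against MA-A4 and 282 and 393 against MA-A8.

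The genes of chromosome XIII were raised in MA-A3 along the whole chromosome. Of its 427 genes 351 were higher (82.2%), 9 were lower and 67 were not called. The median of the chromosome was 0.56, with quartiles of 0.42 and 0.69, against a median of -0.02 elsewhere with quartiles of -0.14 and 0.10. Above 0 lay 407 of the 427 genes (95.3%), compared with 45.5% of genes elsewhere. The difference between the medians was 0.57, which is 1.49-fold if the logarithm has base 2. DNA copy number was not measured here. The left arm (132 genes, median 0.53) and the right arm (295 genes, median 0.56) were alike in level. Bins of 15 neighbouring genes (22 in the last bin) had medians from 0.44 to 0.73, with none near 0.

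**Figure D1:**
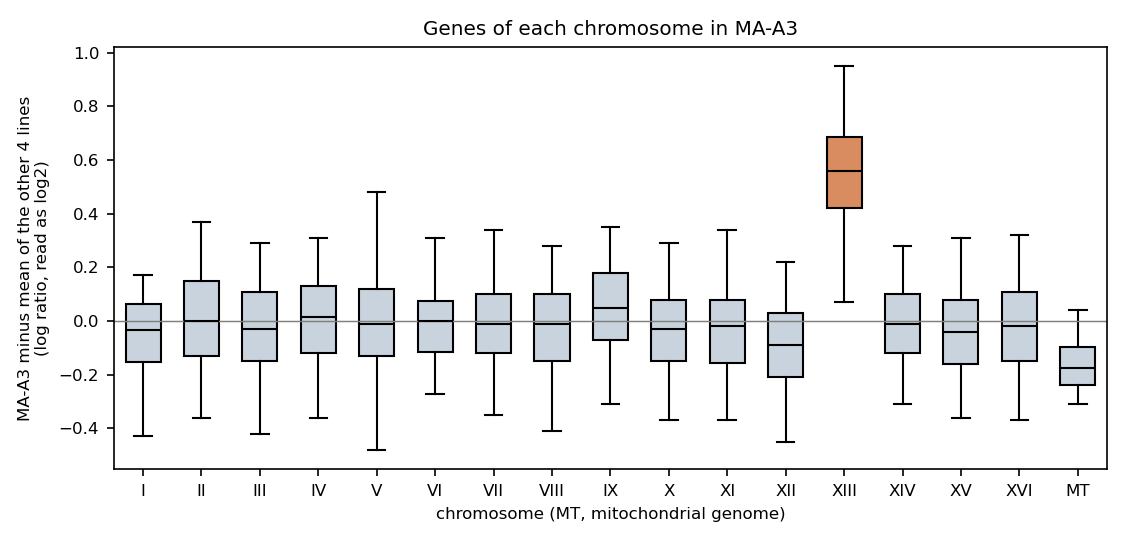
MA-A3 minus the mean of the other 4 lines (log ratio read as log2, y axis) for the genes of each chromosome (x axis). Boxes run between the quartiles with the median as a line, and whiskers run from the 5th to the 95th percentile. The box of chromosome XIII lies around 0.56 and those of the other nuclear chromosomes lie around 0.

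The shift was present on every array with MA-A3 and on no other. The median of chromosome XIII genes minus the median of other genes, turned towards MA-A3, was 0.56 against MA-A4, 0.70 against MA-A8, 0.50 against MA-A0 and 0.52 against MA-A1 (mean 0.57 ± 0.09, SD, n = 4). All 4 values lie apart from the 6 arrays without MA-A3, on which the same difference ran from -0.09 to -0.01. Between 91.3% and 95.6% of the chromosome's genes lay above 0 on the single MA-A3 arrays. An exact sign-flip permutation test over the 4 arrays, 2-sided, gave p = 0.13, which is the smallest that 4 arrays allow. The chromosome was singled out with earlier results of these data known, and the 4 arrays share 1 line, so this p is only a description. Against each line in the fit the chromosome's median was 0.54 (MA-A0), 0.59 (MA-A1), 0.53 (MA-A4) and 0.57 (MA-A8), so the size did not turn on the partner.

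Other chromosomes stayed close to 0 as a whole. The median of chromosome XII in MA-A3 was -0.09 and 53 of its 445 genes were lower (11.9%), but that median was -0.29 against MA-A1 and between -0.05 and -0.01 against the other lines. Chromosome IX had a median of 0.25 against MA-A4 alone and chromosome XI of -0.13 against MA-A1 alone, with values between -0.04 and 0.02 for both against the remaining lines. With chromosomes IX, XI and XII left out as well, 192 of 4120 genes were higher (4.66%) and 252 lower (6.12%), shares close to those with them.

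**Figure D2:**
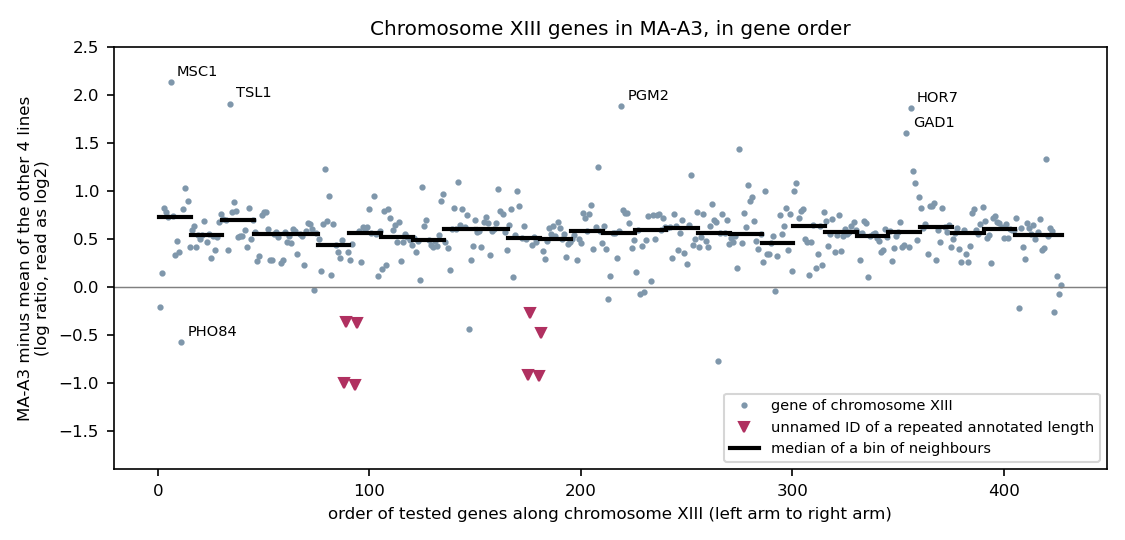
MA-A3 minus the mean of the other 4 lines (log ratio read as log2, y axis) for the 427 tested genes of chromosome XIII in their order from the left to the right arm (x axis). Points are genes and triangles are 8 unnamed IDs of repeated annotated length. Bars are medians of bins of 15 genes (22 in the last bin), which lie between 0.44 and 0.73.

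Most genes of chromosome XIII moved by about the same amount: 351 of 427 (82.2%) lay within 0.3 of the chromosome's median. Their roles were mixed. The recombination gene RAD52 was at 0.81 ± 0.10, the base excision genes OGG1 and UNG1 at 0.65 ± 0.10 and 0.59 ± 0.11, and MRE11, which processes DNA breaks, at 0.59 ± 0.11, and on its arrays MRE11 ran from 0.52 to 0.65. All 6 DNA repair genes tested on the chromosome were higher (median 0.59), whereas of the 25 elsewhere none was higher and 2 were lower (median 0.03). Those 2 lower calls were lost without the array with MA-A8, MA-A0 or MA-A1, and 1 was lost without that with MA-A4 and without those of MA-A4 against MA-A8 and MA-A8 against MA-A1. For mitochondrial ribosomal proteins 7 of 7 genes on the chromosome were higher (median 0.73) against 1 of 56 elsewhere (median 0.14), and the 8 calls in all were 15 without the array of MA-A0 against MA-A8. The ribosome assembly factors RRP5, UTP15 and UTP14 were at 0.67 ± 0.11, 0.63 ± 0.09 and 0.59 ± 0.10, and the 4 genes of that list on the chromosome had a median of 0.61 against -0.03 for the 65 elsewhere. Cytosolic ribosomal proteins differed from this: none of the 10 on chromosome XIII was called higher, with a median of 0.23 against -0.15 for the 117 elsewhere.

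After centring on the chromosome's own median, 25 genes (5.85% of 427) were called above it, beside 4.67% of genes called higher outside the chromosome. Several of the highest are stress and storage genes. MSC1 was at 2.11, 2.70, 1.96 and 1.74 on the arrays against MA-A4, MA-A8, MA-A0 and MA-A1, and all 4 values lay far above the 0.69 of the chromosome's upper quartile. Its fitted difference was 2.13 ± 0.12 (adjusted p = 1.06e-07), and 1.57 after centring on the chromosome (adjusted p = 1.91e-06). TSL1, a regulatory subunit of trehalose synthase, was at 1.40, 2.89, 1.86 and 1.51 in the same order and at 1.91 ± 0.15 in the fit. PGM2, the main phosphoglucomutase on the way to glycogen, was at 1.34, 2.70, 1.82 and 1.65 and at 1.88 ± 0.13. The array against MA-A8 was the highest for all 3, and no array was below 1 for any of them.

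HOR7, a gene induced by osmotic stress, was at 1.86 ± 0.19, the glutamate decarboxylase gene GAD1 at 1.6 ± 0.17 and the aldehyde dehydrogenase gene ALD3 at 1.44 ± 0.11. Of the genes for respiration, the lactate dehydrogenase gene CYB2 was at 1.23 ± 0.13 and the NADH dehydrogenase genes NDE1 and NDI1 at 1.17 ± 0.12 and 1.03 ± 0.11, and these were 0.67, 0.62 and 0.48 above the chromosome. The glucose transporter gene HXT2 was at 1.09 ± 0.13.

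Called below the chromosome's own median were 33 genes (7.73% of 427), beside 6.54% of genes called lower outside the chromosome. Against the other lines, 20 of the 427 lay below 0. Of the 9 called lower than in the other lines, 7 are unnamed IDs described further on, 1 is the unnamed YMR158C-A (-0.77 ± 0.14) and 1 is PHO84, the gene of the high-affinity phosphate transporter. PHO84 was at -1.23 against MA-A4, -0.54 against MA-A8, -0.23 against MA-A0 and -0.31 against MA-A1, below 0 on every array. Its fitted difference was -0.58 ± 0.10 (adjusted p = 0.000761), and -1.13 relative to its chromosome (adjusted p = 6.54e-06). Chosen after their values were seen, the alcohol dehydrogenase gene ADH2 (-0.22 ± 0.12), the chaperone gene HSC82 (-0.04 ± 0.15) and ASC1, which encodes a ribosome-bound protein (-0.08 ± 0.10), were not called against the other lines but lay -0.78, -0.59 and -0.63 from the chromosome's median (adjusted p = 0.000404, 0.0109 and 0.00102). The counts of 25 and 33 fell to 13 and 15 without the array with MA-A0, 16 and 14 without that with MA-A1 and 15 and 20 without that with MA-A8, and without that with MA-A4 the 33 fell to 20.

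Outside chromosome XIII several of the genes furthest up in MA-A3 were general stress genes. DDR2 (YOL052C-A, chromosome XV), a stress-induced gene, was at 2.46 against MA-A4, 3.78 against MA-A8, 2.55 against MA-A0 and 1.79 against MA-A1. HSP12 (YFL014W, chromosome VI), whose small product protects membranes under stress, was at 2.05, 4.24, 1.78 and 2.39 in that order. YGP1, the gene of a glycoprotein that starving cells secrete, was at 2.69, 2.90, 2.36 and 2.13. For all 3 every array lay far above 0 and the array against MA-A8 was the highest. The fitted differences were 2.64 ± 0.17, 2.61 ± 0.17 and 2.52 ± 0.14, which is 6.25-fold, 6.13-fold and 5.74-fold with base 2 (adjusted p = 4.06e-07, 4.06e-07 and 7.16e-08). HSP12 was 1.71 above MA-A0 and 3.88 above MA-A8, so its distance from MA-A3 depended on the partner, while YGP1 was between 2.29 and 2.67 above each of the 4 lines.

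YRO2, whose product is a membrane protein of the Hsp30 family, was close to the same on every array: 1.91, 2.05, 2.06 and 1.98 on the 4 arrays and 2.0 ± 0.10 in the fit (adjusted p = 5.72e-08). SPI1, a gene for a cell wall protein, was at 1.75 ± 0.13 and HSP30, a plasma membrane stress protein gene, at 1.40 ± 0.12. SOL4, which encodes a 6-phosphogluconolactonase, was at 1.39 ± 0.13, the mitochondrial carrier gene PIC2 at 1.36 ± 0.11 and the small heat shock protein gene HSP26 at 1.32 ± 0.16. FMP16 (1.47 ± 0.12), TMA10 (1.39 ± 0.11), ICS2 (1.29 ± 0.12), STP4 (1.16 ± 0.12) and the transcription factor gene USV1 (1.16 ± 0.10) complete the 15 highest with GPH1, described with glycogen below. Each of these was above 0 on 4 of 4 arrays.

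**Figure D3:**
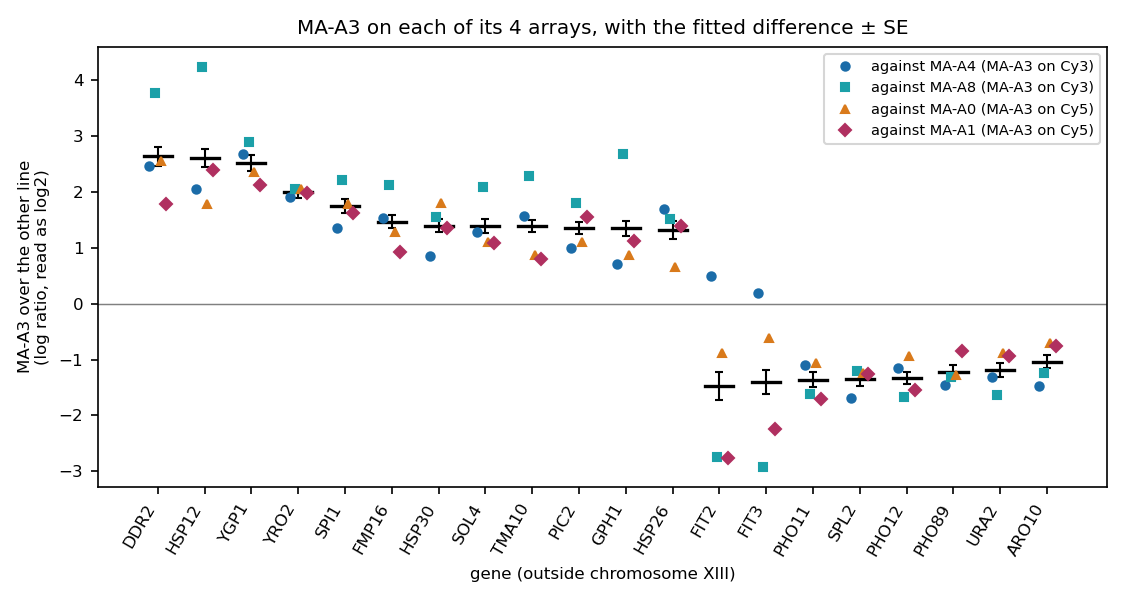
Log ratio of MA-A3 over its partner (read as log2, y axis) on each of the 4 arrays with MA-A3 (symbols) for named genes outside chromosome XIII (x axis), with the fitted value of MA-A3 against the other 4 lines and its SE as a bar. YRO2 lies at about 2 on every array, whereas FIT2 and FIT3 are above 0 against MA-A4 and below 0 against the other 3 lines.

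Of 52 Msn2/Msn4 general stress genes 35 were higher, 1 was lower and 16 were not called, with a median of 0.86 against 0.00 over all genes tested. This list, chosen with earlier results of these data known, holds DDR2, HSP12, YGP1 and MSC1 named above, so its counts are not separate support. The rise was not confined to chromosome XIII: of the 43 members elsewhere 27 were higher with a median of 0.65, and of the 9 members on it 8 were higher with a median of 1.06. The catalase gene CTT1, whose enzyme breaks down hydrogen peroxide, was at 1.07 ± 0.12 and the cell wall gene SED1 at 1.04 ± 0.10. The lower member was CRG1 at -0.32 ± 0.10, named after its value was seen, and no member was lower without the array with MA-A8, MA-A0 or MA-A1, or without that of MA-A1 against MA-A0, MA-A1 against MA-A4 or MA-A8 against MA-A1. Without that of MA-A0 against MA-A8, 2 were. HSP104, the disaggregase gene with 33 spots on the array, was at 0.00 ± 0.17 and also named after its value was seen. The list's median was between 0.69 and 0.91 against each of the 4 lines.

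Among storage carbohydrate genes the calls were all higher. Of 13 glycogen genes 9 were higher, none lower and 4 not called (median 0.43, or 0.35 for the 11 outside chromosome XIII). Glycogen phosphorylase, GPH1, was at 0.72, 2.69, 0.88 and 1.12 on the arrays against MA-A4, MA-A8, MA-A0 and MA-A1 and at 1.35 ± 0.13 in the fit. It was highest against MA-A8, and no array fell below 0. The branching enzyme gene GLC3 was at 0.60 ± 0.10 and the glycogen synthase gene GSY2 at 0.55 ± 0.12, the latter lost without the array with MA-A8 (adjusted p = 0.0614). The count of 9 was 4 without the array with MA-A8 and 5 without that with MA-A1. Of 7 trehalose genes 3 were higher, TSL1 and TPS3 (0.84 ± 0.11) on chromosome XIII and the phosphatase gene TPS2 elsewhere (0.96 ± 0.11). TPS2 was 1 of 5 members outside chromosome XIII, which had a median of 0.27. After centring on the chromosome TSL1 was at 1.36 and TPS3 at 0.29 (adjusted p = 3.18e-05 and 0.102 in limma's test), so TPS3 was not called above it. The median of these 7 genes was 0.34, and it was 0.86 without the array with MA-A4 and 0.12 without that with MA-A8.

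The chaperone genes under the heat shock factor Hsf1 divided. Of 28 members 4 were higher and 6 lower, with a median of -0.23. The higher ones include BTN2, a protein-sorting factor gene (0.89 ± 0.13), the DnaJ gene APJ1 (0.59 ± 0.12) and the Hsp110 gene SSE2 (0.49 ± 0.13). The lower ones include the Hsp90 co-chaperone gene CPR6 (-0.60 ± 0.18). This split rested on single arrays: the 6 lower calls were 0 without the array with MA-A4, MA-A0 or MA-A1, 1 without that of MA-A1 against MA-A4 and 2 without that of MA-A8 against MA-A1, and the 4 higher calls were 2 without that with MA-A8 and 1 without that with MA-A1. SSE2 lost its call without the array with MA-A8, MA-A0 or MA-A1 (adjusted p up to 0.218) and was at 0.30 without the first of these. APJ1 did without that with MA-A1 (0.0589). CPR6 did without the array with MA-A4, MA-A0 or MA-A1 and without 2 of the others (up to 0.305). In oxidant defence calls went both ways, with a median of 0.04. All lay among the 25 members outside chromosome XIII, where 4.67% of all genes tested were higher and 6.54% lower. Of 26 genes 3 were higher, CTT1 and the peroxidase gene GPX1 (0.54 ± 0.11) among them. Another 3 were lower, among them the thioredoxin gene TRX1 (-0.63 ± 0.10) and OYE3, an NADPH oxidoreductase gene (-0.67 ± 0.12). Without the array of MA-A0 against MA-A8 both counts were 5.

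Among phosphate genes, 4 of 12 of uptake and regulation (median -0.15), 4 of 10 phosphatases (median -0.21) and 5 of 9 polyphosphate genes (median -0.51) were lower in MA-A3, 1 of each list was higher and the rest were not called. SPL2, a brake on the low-affinity phosphate transporters, had values of -1.68, -1.21, -1.24 and -1.26 against MA-A4, MA-A8, MA-A0 and MA-A1. PHO89, the gene of a sodium-phosphate cotransporter, was at -1.45, -1.32, -1.28 and -0.85, and PHO11, a secreted acid phosphatase gene, at -1.09, -1.61, -1.06 and -1.70. All 12 values were -0.85 or lower, and the values against the 4 partners overlapped. The fitted differences were -1.35 ± 0.13, -1.22 ± 0.13 and -1.36 ± 0.13 (adjusted p = 1.13e-05, 2.02e-05 and 1.38e-05). PHO12 was at -1.33 ± 0.11, and as PHO11 and PHO12 are near-identical genes their probes may read both. Against single lines PHO11 was lower by -1.07 to -1.59 and PHO89 by -0.82 to -1.79.

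Genes of the vacuole's polyphosphate polymerase complex were also lower. VTC3 was at -0.98 ± 0.10, VTC1 at -0.95 ± 0.13 and VTC4, the catalytic subunit, at -0.81 ± 0.09, and PHM6, a phosphate-regulated gene of unknown function, was at -0.67 ± 0.13. VTC3 lay between -1.32 and -0.81 on its arrays, lowest against MA-A4. The vacuolar alkaline phosphatase gene PHO8 was at -0.80 ± 0.11. The higher members of the 3 lists were PHM8, a nucleotide phosphatase gene (0.92 ± 0.11), the low-affinity transporter gene PHO87 (0.39 ± 0.11), whose call ended without the array with MA-A4, MA-A8 or MA-A0 (adjusted p up to 0.189), and PHM7 (0.55), named after its value was seen. That last call was lost without the array with MA-A8 or MA-A0.

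Of 8 genes for siderophore and cell wall iron capture 5 were lower and none higher, with a median of -0.73. The 2 lowest named genes outside chromosome XIII belong to it, and they did not behave alike against all partners. FIT2, a cell wall mannoprotein gene, was at 0.50 against MA-A4, -2.75 against MA-A8, -0.88 against MA-A0 and -2.77 against MA-A1. FIT3, of the same family, was at 0.20, -2.92, -0.62 and -2.25. Both were far below 0 against MA-A8 and MA-A1 and slightly above 0 on the array with MA-A4. The fitted differences were -1.48 ± 0.25 and -1.40 ± 0.21 (adjusted p = 0.000761 and 0.000358). Pair by pair, FIT2 was -2.43 from MA-A1 and -2.37 from MA-A8 (adjusted p = 0.000253 and 0.000209), but -0.68 from MA-A0 and -0.42 from MA-A4 (adjusted p = 0.201 and 0.516). FIT3 was -2.30 and -2.37 from MA-A1 and MA-A8, and -0.50 and -0.42 from MA-A0 and MA-A4, which did not pass (adjusted p = 0.274 and 0.428).

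The siderophore transporter genes SIT1 (-0.95 ± 0.15) and ENB1 (-0.82 ± 0.17) were lower, ENB1 without passing when the array with MA-A1 was left out (adjusted p = 0.0580). Without that array the count was 3 of 8. From MA-A0 SIT1 was at -0.55 and ENB1 at -0.49, and neither passed limma's test (adjusted p = 0.0814 and 0.16). The median of the 8 genes was -0.33, -1.1, -0.39 and -1.0 from MA-A0, MA-A1, MA-A4 and MA-A8. Reductive iron uptake showed no common direction, with 3 of 21 genes higher and 3 lower and a median of -0.01. TIS11, an mRNA-decay factor gene of iron shortage, was at -0.75 ± 0.16 and the iron-sulphur scaffold gene ISU1 at 0.47 ± 0.10, and the low-affinity transporter gene FET4, on chromosome XIII, was at 0.58 ± 0.10. ISU1 was only 0.02 from MA-A4 (adjusted p = 0.957 in limma's test of that pair). TIS11 lost its call without the array with MA-A1 (adjusted p = 0.0726). It was -0.31 from MA-A0 and -0.49 from MA-A4 and passed in neither pair (adjusted p = 0.357 and 0.149 in limma's test). The 3 lower calls of the list became 1 without the array with MA-A4 or MA-A0, 0 without that with MA-A1 and 5 without that of MA-A0 against MA-A8.

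Lists of amino acid enzymes, mostly of synthesis, differed in how many members were lower. Some members are not synthesis genes, among them ARO9 in the aromatic list and CHA1 and GCV2 in the serine, glycine and threonine list. For branched-chain amino acids 6 of 8 genes were lower (median -0.38), for lysine 5 of 9 (median -0.31), for aromatic amino acids 6 of 14 (median -0.26) and for glutamate, glutamine, aspartate and asparagine 5 of 14 (median -0.23), and no member of these 4 lists was higher. Fewer calls or calls both ways were found elsewhere: 2 of 7 arginine genes (median -0.11) and 1 of 7 histidine genes (median -0.16) were lower, 6 of 15 serine, glycine and threonine genes were lower and 2 higher (median -0.14), and 1 of 22 sulphate and methionine genes was lower and 2 higher (median -0.03). ARO10, the phenylpyruvate decarboxylase gene of aromatic amino acid breakdown, was at -1.04 ± 0.12 and the transaminase gene ARO9 at -0.68 ± 0.12. The glutamate dehydrogenase gene GDH1 was at -0.93, -0.88, -0.54 and -0.44 against MA-A4, MA-A8, MA-A0 and MA-A1 and at -0.70 ± 0.09 in the fit, below 0 on every array. The argininosuccinate synthase and lyase genes ARG1 and ARG4 were at -0.88 ± 0.14 and -0.69 ± 0.10, TRP5 of tryptophan synthesis at -0.55 ± 0.11, LYS1 of lysine synthesis at -0.58 ± 0.11 and the asparagine synthetase gene ASN1 at -0.58 ± 0.10. CHA1, whose deaminase breaks down serine and threonine, was at -0.86 ± 0.11. Higher were the serine synthesis gene SER3 (0.56 ± 0.14), the methionine synthase gene MET6 (0.54 ± 0.15), the methionine permease gene MUP1 (0.72 ± 0.11) and, on chromosome XIII, the glycine cleavage gene GCV2 (0.55 ± 0.15). Against MA-A4 alone SER3 was at 0.70 in limma's test (adjusted p = 0.0167). MET6, MUP1 and GCV2 were at 0.06, 0.05 and 0.21 from MA-A4 and did not pass (adjusted p = 0.905, 0.903 and 0.613).

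The calls thinned when arrays were left out, while the medians of the 4 lists stayed between -0.45 and -0.18. Without the array with MA-A4, MA-A8, MA-A0 or MA-A1 in turn, the lower branched-chain genes numbered 2, 3, 2 and 3, and the lysine genes 3, 3, 3 and 2. The aromatic genes numbered 2, 3 and 3 without that with MA-A4, MA-A0 or MA-A1, and the glutamate group 2, 3 and 2. The 6 lower serine, glycine and threonine genes were 2 without the array with MA-A1, and their 2 higher ones were 1, 1, 0 and 1 without that with MA-A4, MA-A8, MA-A0 or MA-A1. The lower histidine gene was lost without the array with MA-A1 and the lower sulphate gene without any array with MA-A3, and the 2 higher sulphate and methionine genes were 1 without that with MA-A4, MA-A8 or MA-A0. SER3 lost its call without the array with MA-A8, MA-A0 or MA-A1, MET6 without that with MA-A4, MA-A8 or MA-A0, and GCV2 without that with MA-A4 or MA-A0, the first of which took it to 0.27. Amino acid permeases were not lower as a list, with 5 of 18 higher and 1 lower (median 0.19), and the higher ones include the methionine permease gene MUP3 (0.57 ± 0.12) and AGP1 (0.39 ± 0.09). From MA-A4 alone MUP3 was at 0.14 and AGP1 at -0.07, and neither passed limma's test (adjusted p = 0.655 and 0.808). AGP1 was highest in MA-A4. The higher count was 1, 2, 0 and 2 without the array with MA-A4, MA-A8, MA-A0 or MA-A1, MUP3 lost its call without that with MA-A0 (adjusted p = 0.0506) and AGP1 without that with MA-A4, MA-A0 or MA-A1. The lower member, joined by another without the array with MA-A8, was the polyamine exporter gene TPO1, at -2.26, -0.90, -0.50 and -0.41 in the same order of partners, with a fitted difference of -1.02 ± 0.21 that was -0.55 without the array with MA-A4.

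Calls in pyrimidine synthesis went both ways, and the higher ones lay on chromosome XIII, where 82.2% of all genes tested were higher. URA2, which encodes the enzyme of the first steps of the pathway, was at -1.31, -1.63, -0.89 and -0.93 against MA-A4, MA-A8, MA-A0 and MA-A1 and at -1.19 ± 0.13 in the fit (adjusted p = 3.78e-05). URA4, the next enzyme, was at -0.68 ± 0.09 and URA1, the dehydrogenase, at -0.53 ± 0.13, the last lost without the array with MA-A8, MA-A0 or MA-A1 (adjusted p up to 0.0867). In the list 4 of 8 genes were lower, and the 2 higher ones, URA10 (0.42 ± 0.10) and URA5 (0.38), the latter named after its value was seen, both encode the orotate phosphoribosyltransferase step and both lie on chromosome XIII. The 6 members elsewhere had a median of -0.43. The lower count was 2 without the array with MA-A8, MA-A0 or MA-A1, and the higher count was 0, 1 and 0 in that order. URA10 lost its call without the array with MA-A8 or MA-A1 (adjusted p up to 0.112). After centring on its chromosome it was at -0.13 and was not called (adjusted p = 0.442 in limma's test). Of 13 purine and one-carbon genes 1 was lower, IMD2 of guanine nucleotide synthesis (-0.75 ± 0.13), and 3 were higher, all on chromosome XIII: ADE17 (0.74 ± 0.11) of purine synthesis, ADE4 of the same pathway (0.59 ± 0.11, named after its value was seen) and GUA1 (0.37 ± 0.09), also of guanine nucleotide synthesis. GUA1 lost its call without the array with MA-A8 or MA-A0, and the lower count was 2 without that of MA-A0 against MA-A4 or MA-A0 against MA-A8. After centring on their chromosome ADE17 was at 0.19 and GUA1 at -0.18, and neither was called (adjusted p = 0.356 and 0.248 in limma's test).

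In central carbon metabolism calls in glycolysis were mostly lower and those among hexose transporters higher. Of 19 glycolytic genes 7 were lower, 2 higher and 10 not called, with a median of -0.51. The enolase gene ENO2 was at -0.85 ± 0.26, the phosphoglycerate mutase gene GPM1 at -0.76 ± 0.16 and the triose phosphate isomerase gene TPI1 at -0.68 ± 0.17. These values were uneven: GPM1 was at -1.37, -1.0, -0.10 and -0.59 and TPI1 at -1.38, -1.18, 0.09 and -0.24 against MA-A4, MA-A8, MA-A0 and MA-A1. Both were lowest with MA-A3 on Cy3 and near 0 against MA-A0. The median of the list on the 4 arrays was -1.09, -0.73, 0.09 and -0.24. The hexokinase gene HXK1 was among the higher members at 0.64 ± 0.16, a value that rests on the array against MA-A8 (2.04, with the others between 0.14 and 0.22) and that was 0.42 without it (adjusted p = 0.140). Its call also ended without the array with MA-A0 (0.115).

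The glycolytic count of 7 was 4 without the array with MA-A4, 1 without that with MA-A1 and 12 without that of MA-A4 against MA-A8 or of MA-A0 against MA-A8, and the median was -0.32 without the array with MA-A4 or MA-A1. The 2 higher calls became 0 without the array with MA-A8 or MA-A0, and 1 without that of MA-A1 against MA-A0, MA-A1 against MA-A4, MA-A4 against MA-A8 or MA-A8 against MA-A1. TPI1 lost its call without the array with MA-A4 or MA-A1, ENO2 without these or that of MA-A1 against MA-A4, and GPM1 without that with MA-A1, and ENO2 was at -0.56 without the last. Of 21 hexose transporters and sensors 6 were higher and none lower, although the median was 0.09. HXT4 was at 0.56 ± 0.12, HXT7 at 0.51 ± 0.10 and HXT6 at 0.42 ± 0.10, of which HXT6 and HXT7 are near-identical and may share signal. The count was 3 and 2 without the array with MA-A0 or MA-A1, and 1 gene was lower without that with MA-A4 or that of MA-A0 against MA-A8. HXT4 lost its call without the array with MA-A1 (adjusted p = 0.0732), and HXT6 without that with MA-A8, MA-A0 or MA-A1 (up to 0.130). In the pentose phosphate pathway 3 of 13 genes were lower, the dehydrogenase gene GND1 (-0.77 ± 0.11) and the transketolase gene TKL1 (-0.62 ± 0.10) among them, and 2 were higher, SOL4 and NQM1 (0.65 ± 0.11), a transaldolase gene induced by stress.

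Of 17 late ergosterol genes 6 were lower and 1 higher (median -0.27). ERG28, a scaffold of the C-4 demethylation complex, was at -0.74 ± 0.11, ERG26 of the same complex at -0.63 ± 0.11 and the ketoreductase gene ERG27 at -0.56 ± 0.10. ERG28 lay between -1.06 and -0.53 on its arrays, all below 0. The higher gene was ERG5 on chromosome XIII, at 0.75 ± 0.09. Without the array with MA-A0 or MA-A1 the lower count was 3. Of 9 genes of the respiratory cytochrome bc1 complex 2 were higher, RIP1 (0.48 ± 0.10) and CYT1 (0.46 ± 0.11), and none was lower (median 0.32). All 9 lie outside chromosome XIII, where 4.67% of all genes tested were higher. RIP1 was at -0.03, 0.91, 0.29 and 0.75 on its arrays, close to 0 against MA-A4. The bc1 count was 5 without the array with MA-A4 or that of MA-A0 against MA-A8, 0 without that with MA-A8 or MA-A0, and 1 without that with MA-A1, and its median was 0.16 without that with MA-A8. RIP1 lost its call without the array with MA-A8 or MA-A0 and CYT1 without these or that with MA-A1 (adjusted p up to 0.0641 and 0.133).

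Of 10 histone genes 7 were higher and none was lower, with a median of 0.37. The median of these genes was -0.25 against MA-A4, 0.14 against MA-A8, 0.75 against MA-A0 and 0.92 against MA-A1, so the Cy3 arrays and the Cy5 arrays of MA-A3 did not overlap, and the dye was a term of the fit. HHF1, a histone H4 gene, was at -0.21, 0.23, 1.42 and 0.95 in that order and at 0.60 ± 0.17 in the fit (adjusted p = 0.0232). The histone H2A gene HTA1 was at 0.48 ± 0.12. The count of 7 was 3, 2, 0 and 1 without the array with MA-A4, MA-A8, MA-A0 or MA-A1, HHF1 lost its call without the array with MA-A4, MA-A8 or MA-A0 and was at 0.38 without the last, and HTA1 without that with MA-A0 or MA-A1. Genes of the same histone are near-identical in sequence, so their probes may share signal.

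Cytosolic ribosomal proteins showed a like dependence on the array. Of 127 genes 5 were lower and 1 higher, with a median of -0.14, and on the 4 arrays the median was -0.72, -0.24, 0.47 and 0.00. The median was -0.03 without the array with MA-A4, -0.07 without that with MA-A1 and -0.25 without that with MA-A0. The lower count was 1 without the array with MA-A4 or MA-A1, and it was 8 without that of MA-A4 against MA-A8 and 13 without that of MA-A0 against MA-A8, while the higher count ran from 0 (without the array with MA-A0) to 3 (without that of MA-A0 against MA-A8). RPL22B was the higher gene at 0.58 ± 0.13 and RPS28A the lowest at -0.50 ± 0.10, and RPL22B lost its call without the array with MA-A0 (adjusted p = 0.102).

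**Figure D4:**
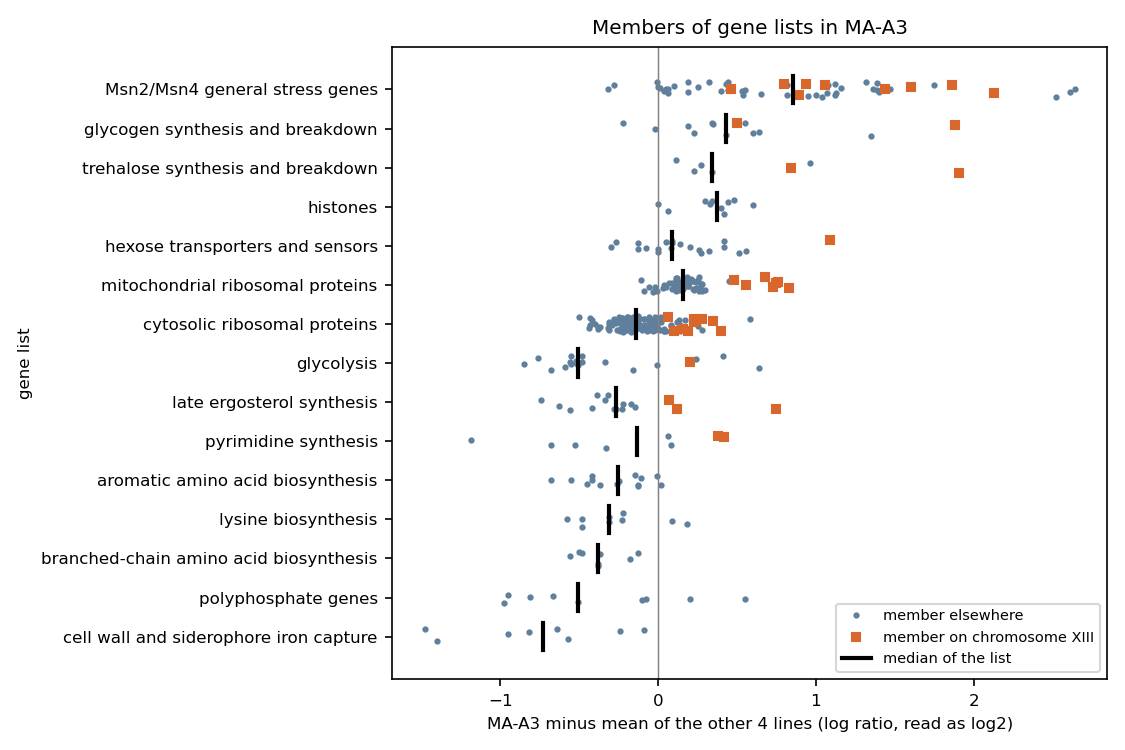
MA-A3 minus the mean of the other 4 lines (log ratio read as log2, x axis) for the members of 15 gene lists (y axis). Points are members outside chromosome XIII, squares members on it, and bars the median of the list, from 0.86 for general stress genes to -0.73 for siderophore and cell wall iron capture.

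A set of IDs without a gene name, found after the values were seen, was lower in MA-A3 on chromosome XIII as well as elsewhere. These IDs fall into 4 groups of identical length in the R64 annotation, 1317, 1323, 5269 and 5314 bases, and 57 of the 72 tested were lower and none higher. No symbol or function is attached to them in the annotation used here. Of the 23 IDs of 5269 bases 23 were lower, with differences from -1.26 to -0.84 and a median of -0.98. Of the 9 of 5314 bases 8 were lower (median -0.80), of the 31 of 1323 bases 26 were lower (median -0.39), and of the 9 of 1317 bases none was called in limma's test (median -0.25), although 6 had an unadjusted p under 0.05. Because IDs of one length may be copies whose probes read the same transcripts, they are not independent, and the agreement among them is not a count of separate genes.

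On the arrays, the 23 IDs of 5269 bases had medians of -1.87 against MA-A4, -1.02 against MA-A8, -0.52 against MA-A0 and -0.43 against MA-A1. The 31 of 1323 bases had medians of -1.05, -0.54, -0.17 and 0.20. The order of arrays was the same in both, and the lower pair were those with MA-A3 on Cy3, so on single arrays dye and partner cannot be told apart. In the fit the median of the 5269-base IDs was -1.26 from MA-A4, -1.08 from MA-A8, -0.93 from MA-A0 and -0.67 from MA-A1. YJR027W on chromosome X was lowest of these at -1.26 ± 0.22, and YDR210C-D on chromosome IV was at -1.05 ± 0.13. Without the array with MA-A4 or MA-A0 the 57 became 36 and 37. The 23 of 23 held without each array in turn, whereas the 26 of 31 became 5 without the array with MA-A4, 6 without that with MA-A0 and 16 without that with MA-A1.

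On chromosome XIII lie 8 of the 72 IDs, of which 7 were lower and none was higher. YML039W, YML045W, YMR050C and YMR045C, the 4 of 5269 bases there, were at -1.02 ± 0.13, -1.0 ± 0.13, -0.93 ± 0.14 and -0.92 ± 0.13, and their median of -0.96 was close to the -0.98 of the IDs elsewhere. YML039W was at -2.13, -1.08, -0.46 and -0.40 against MA-A4, MA-A8, MA-A0 and MA-A1, lowest against MA-A4 and below 0 against every line. The IDs of the set make up 50 of the 326 genes lower outside chromosome XIII (15.3%), and without them 276 remain.

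**Figure D5:**
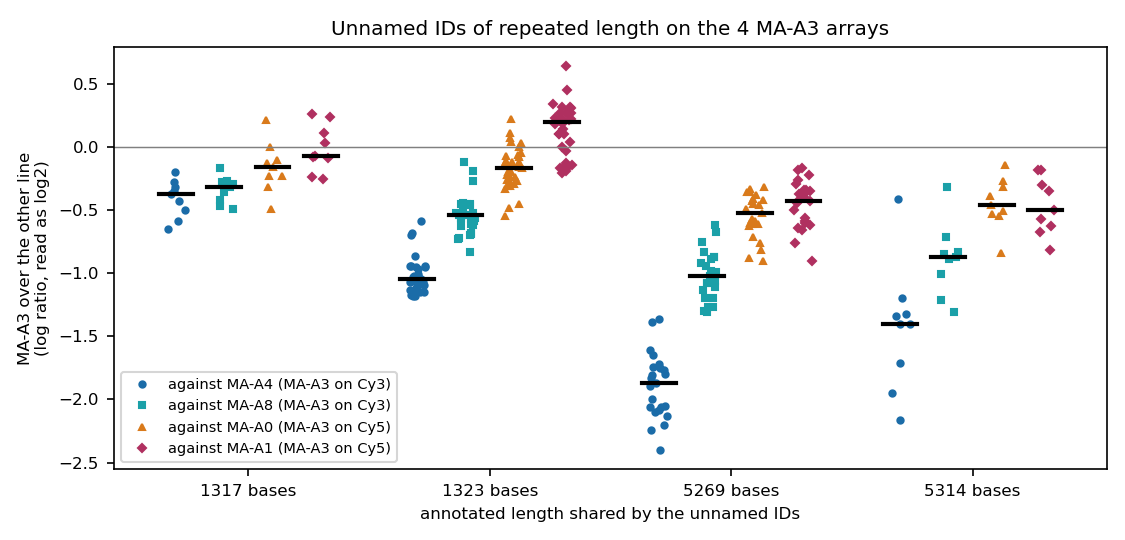
Log ratio of MA-A3 over its partner (read as log2, y axis) on the 4 arrays with MA-A3 (symbols) for unnamed IDs grouped by their shared annotated length (x axis), with the median as a bar. The 23 IDs of 5269 bases have medians from -1.87 against MA-A4 to -0.43 against MA-A1.

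The labels do not give a mating type, and of its 3 gene lists only the a-specific one held calls. In limma's test none of 4 genes specific to mating type alpha (0 at an unadjusted p under 0.05) and none of 9 haploid-specific genes (3 at that level) was called, the latter with 1 lower call without the array of MA-A1 against MA-A0 and 2 without that of MA-A0 against MA-A8. Of 7 a-specific genes, all outside chromosome XIII, 2 were lower, beside 6.54% of all genes tested there. They were BAR1, a secreted protease gene (-0.58 ± 0.11), and the agglutinin subunit gene AGA2 (-0.43 ± 0.10). AGA2 lost its call without the array with MA-A4 or MA-A8 (adjusted p up to 0.0895). Pair by pair AGA2 was -0.92, -0.20, -0.18 and -0.44 from MA-A0, MA-A1, MA-A4 and MA-A8 (adjusted p = 0.000723, 0.382, 0.503 and 0.0286 in limma's test). The median of the 7 genes was -0.71, -0.11, -0.08 and 0.02 from these lines, so the distance was mainly from MA-A0. The receptor gene STE2, also a-specific and named after its value was seen, was at 0.02 ± 0.11. None of 24 seripauperin genes and none of 16 genes of the mitochondrial genome was called by limma, with 3 at an unadjusted p under 0.05 in each list and medians of -0.10 and -0.18.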

How the data were processed

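Total RNA of 5 yeast lines was compared on 10 dual-colour arrays labelled with a dendrimer system, per the labels. The authors deposited 1 number for every probe row on every array, read here as log2 of the ratio of Cy5 to Cy3. Base, direction, scanner, background correction and normalization were not given in the sources used here. Of 7744 rows, 6116 have a gene in the platform annotation, and 6111 IDs matched the R64 annotation, used for names and order only. Arrays had values for 81.1% to 88.1% of rows and medians from -0.84 to 0.41, so each was centred on its median and rows of one gene averaged. The 5415 genes measured on 8 or more arrays were fitted with limma 3.58.1 (R 4.3.3, statmod 1.5.0), as Cy5 line minus Cy3 line plus a dye term, which left 5 residual degrees of freedom (prior 9.19), and the contrast was MA-A3 minus the mean of the other lines. The median residual SD was 0.21 and the median SE 0.11; 275 genes had a dye effect. The fit was also run on simulated data with known changes. Its noise was independent between genes and arrays, so it could not show errors shared across an array, and no result here rests on it. Genes on chromosome XIII were also centred on their chromosome's median. The precision is limited by the number of arrays. The members and all 58 lists were chosen with earlier results of these data known. Named genes are the 15 highest and 15 lowest outside chromosome XIII, the 8 highest and up to 5 lowest on it, the 5 furthest each way after its own centring, and up to 4 members of each list; genes outside this rule are said to be so. Promoter and protein sequences were not analysed here.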

Additional observations from a re-analysis of the deposited data

Results flagged for a closer look

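Among 208 named genes, 17 had 1 of the 4 MA-A3 arrays far from the other 3 by Dixon's test (the gap as a share of the range), and chance gives such a gap in about 1 in 20 groups. Each array has its own partner line, so a distant value can come from the partner as well as from the array, and this was not tested. The array against MA-A8 was the highest for GAD1 (2.82, next 1.30), HXK1 (2.04, next 0.22), NDE1 (1.69), TPS2 (1.47), GSY2 (1.33), GLC3 (1.25) and CLB1 (1.11). The array against MA-A4 stood apart for SPL2 (-1.68), YMR045C (-1.83), YDR210C-D (-1.74), YMR158C-A (-1.36), PHM6 (-0.32), TAT2 (0.03) and UTP14 (0.50). The array against MA-A0 stood apart for AAT2 (-0.29) and HCR1 (-0.03), and that against MA-A1 for OYE3 (-1.39).

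Of 817 probe rows without a gene name that had enough values to be tested, 2 differed in MA-A3, and both were higher.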

How the results depend on the processing

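Of 200 named genes that passed, none changed sign under the 12 alternatives or with 1 array left out, but calls were lost: 128 with values as deposited, 80 with the unmoderated test, 33 with the 4 MA-A3 arrays alone, 28 without the dye term, 15 with the sign of MA-A0 against MA-A8 turned, and 59 at most without 1 array (that with MA-A0). The median of chromosome XIII genes in MA-A3 stayed between 0.52 and 0.59 without 1 array. For the genes higher in MA-A3, genes lower in MA-A3 and each of these outside chromosome XIII, the counts of 584, 335, 233 and 326 were 110, 66, 49 and 61 with values as deposited. The lower counts were 213 and 206 without the dye term and 177 and 170 with the unmoderated test, which gave 145 for the higher genes outside chromosome XIII. The chromosome XIII genes called off their chromosome's median numbered 25 higher and 33 lower. These counts became 6 and 11 with values as deposited and 11 and 16 with the unmoderated test. The lower count was 21 without the dye term. With 1 array left out the ranges were 406 to 709 and 159 to 518, outside chromosome XIII 122 to 341 and 151 to 508, and off the chromosome's median 13 to 37 and 14 to 45. The alternatives chosen after seeing the data, without chromosomes IX, XI and XII (192 and 252) and without the unnamed IDs (276 lower), stayed within 1.5 times. No paired analysis was possible because the labels give no replicate numbers to use as a block, beyond the pairing of lines within each array that the model already holds. The planned promoter motif counts were not run, as no promoter sequence was used here. Spots repeated 33 times had SDs of 0.08 to 0.33 within an array, and signal over background could not be assessed.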

Other observations

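Gene groups added after the values were seen, and therefore only described, gave the following. Eisosome proteins and their membrane domain, which furrow the plasma membrane, had 4 of 8 genes higher and none lower (median 0.60, or 0.31 for the 6 outside chromosome XIII). EIS1 and SUR7, both on chromosome XIII, were at 1.02 ± 0.12 and 0.95 ± 0.13, and FMP45 and NCE102 elsewhere at 0.85 ± 0.15 and 0.70 ± 0.13. SUR7 was at 0.49, 1.47, 1.02 and 0.83 and NCE102 at 0.15, 1.06, 0.58 and 1.01 on the arrays against MA-A4, MA-A8, MA-A0 and MA-A1, lowest against MA-A4 and highest against MA-A8. LSP1 was at 0.50 ± 0.17 and PIL1, the main eisosome core protein gene, at 0.12 ± 0.14, and neither passed.

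All 19 aminoacyl-tRNA synthetase genes, whose enzymes charge tRNAs with amino acids, had differences below 0, from -0.63 to -0.03 with a median of -0.21, and 5 of them were called lower. Outside chromosome XIII 45.5% of all genes lie above 0 and 6.54% were called lower. HTS1 was at -0.63 ± 0.09 and between -0.76 and -0.50 on its 4 arrays, and DPS1 was at -0.47 ± 0.10. The count of 5 was 3 without the array with MA-A4, MA-A8 or MA-A0, 1 without that with MA-A1 and 9 without that of MA-A0 against MA-A8. The 13 vacuolar ATPase genes tested had a median of -0.24 and were also below 0, of which VMA13 (-0.47 ± 0.11) and VMA7 (-0.38 ± 0.10) were called. That count of 2 was 0 without the array with MA-A4, 1 without that with MA-A0 or MA-A1 and 6 without that of MA-A0 against MA-A8. None of the 19 and none of the 13 lies on chromosome XIII.

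SOK2 on chromosome XIII, picked after its values were seen, was at -3.29 on the array against MA-A4 and between 0.37 and 0.61 on the other 3, and its fitted difference of -0.44 ± 0.41 was not called.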
